A study of Homo sapiens with 4 samples.

Results

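Both olaparib-resistant prostate cancer lines were set against both parental lines, with all 4 of the 4 libraries of the series. The resistant group held LN-OlapR and 2B-OlapR and the parental group LNCaP and C4-2B, with 1 library of poly(A) messenger RNA per line. LNCaP is an androgen-dependent line of human prostate adenocarcinoma, described as castration-sensitive, whereas C4-2B, itself derived from LNCaP, grows without androgen and is castration-resistant, so the 2 backgrounds are related. Each resistant line was selected from its own parental line by long exposure to rising doses of olaparib, is 1 derived line, and was plated without the drug before RNA was isolated. By the study's methods, the resistant lines were otherwise maintained in medium with olaparib. The parental lines are labelled untreated. Time in culture, drug selection, maintenance in olaparib and its withdrawal before RNA was isolated therefore differ together between the groups and cannot be told apart. The question addressed is which changes of expression the 2 backgrounds share and what functions the genes involved have.

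Olaparib blocks PARP1 and PARP2, enzymes that mark broken DNA with poly(ADP-ribose), and traps them on the DNA. Cells that cannot repair the resulting breaks by homologous recombination die, which is why the drug is used in prostate cancers with defects in that pathway. Resistance is known to arise in several ways, among them restored recombination, protection of replication forks, export of the drug, and shifts in growth factor signalling or metabolism. Genes of these processes are therefore described below beside the genes with the largest shared differences.

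Each resistant library was divided by that of its parent. The log2 of this is called the LN ratio for LN-OlapR to LNCaP and the 2B ratio for 2B-OlapR to C4-2B. Counts were scaled between libraries and are given as normalized CPM (counts per 1e+06, after scaling), and 0.5 counts were added before a ratio was taken. A gene was called shared when both ratios had the same sign and a size of at least 1, a 2-fold difference. Library totals ranged from 19950537 to 26394267 counts, and 15644 of 22637 genes had a mean of at least 1 CPM and were tested. Markers of prostate luminal cells were present in every library. HOXB13 lay between 382 and 509 normalized CPM, and KRT18 between 375 and 423. KLK3, which encodes PSA, stood at 53.3 normalized CPM in LNCaP and at 1880 or more in the other 3 libraries. Of markers of other cell types, COL1A1 reached at most 16.1, VWF 12.2 and the neuroendocrine marker SYP 3.13 normalized CPM, and KRT5, TP63, PTPRC, PECAM1 and CHGA were not analysed here.

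Across both backgrounds, 164 genes (1.05% of the genes tested) were at least 2-fold higher in both resistant lines and 214 (1.37%) were at least 2-fold lower in both. Among them were genes for guidance cues and their receptors, the actomyosin cytoskeleton, cell surface receptors and channels, glucuronidation of steroids, and chromatin and DNA methylation. A difference of at least 4-fold in both backgrounds was found for 43 higher and 57 lower genes. In 4 of the 164 higher and 10 of the 214 lower genes, both libraries of 1 background had 3 counts or fewer, so that the ratio there comes mostly from the added counts. The shared genes were a minority of each background. In the LN pair, 745 genes were at least 2-fold higher and 797 lower, of which 22% and 26.9% were shared. In the 2B pair, 653 were higher and 956 lower, of which 25.1% and 22.4% were shared. Differences of at least 2-fold in opposite directions were found for 97 genes that were higher in LN-OlapR and lower in 2B-OlapR, and for 88 genes with the reverse pattern. Over all genes tested, 28% were higher in both backgrounds, 29.4% were lower in both and the rest had opposite signs.

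**Figure D1:**
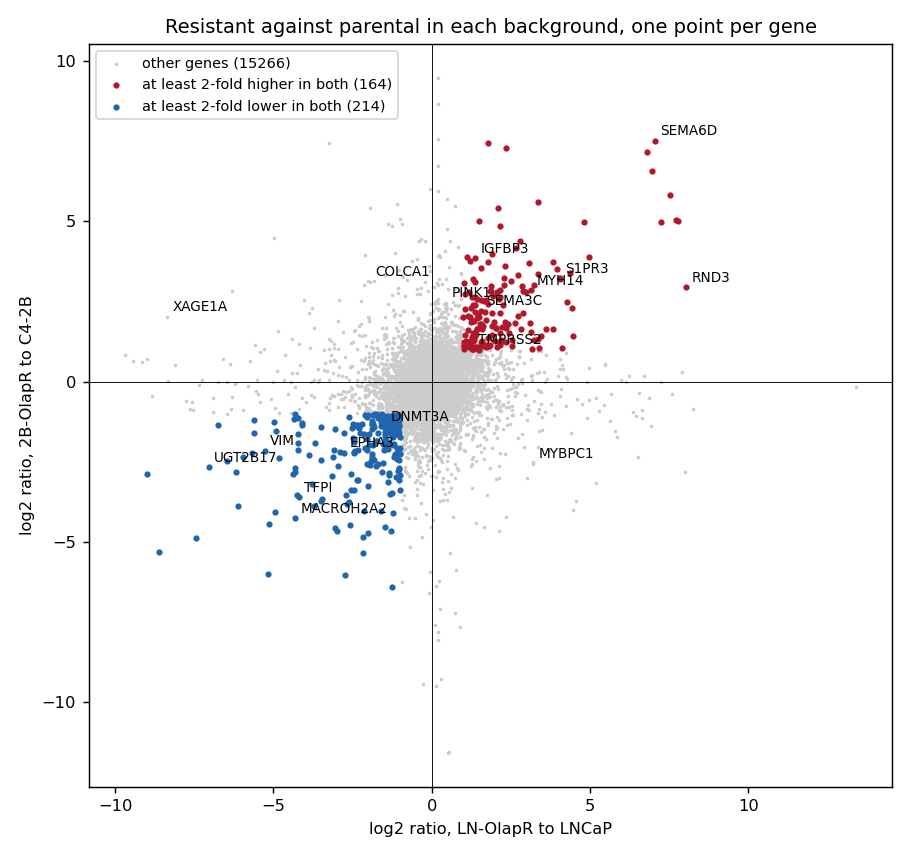
Log2 ratio of LN-OlapR to LNCaP (x axis) against log2 ratio of 2B-OlapR to C4-2B (y axis) for the 15644 genes tested, with 1 point per gene. The 164 genes in red were at least 2-fold higher and the 214 in blue at least 2-fold lower in both backgrounds, and SEMA6D and MACROH2A2 lie far from the origin in both.

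With background as a block, edgeR's quasi-likelihood test called 0 genes (0% of 15644) at a Benjamini-Hochberg adjusted p under 0.05. The fit has 1 residual degree of freedom. The lowest adjusted p was 0.0947, which SEMA6D, MYH14, MACROH2A2, TFPI and TMEFF2 shared. At an unadjusted p under 0.05 there were 1277 genes, 614 higher (3.92%) and 663 lower (4.24%) in the resistant lines. DESeq2, run as an alternative on the same design, called 78 genes higher (0.541%) and 87 lower (0.603%) among 14430 genes with an adjusted p, and 108 of these 165 genes were also shared at 2-fold. With genes limited to a mean of at least 10 CPM, edgeR called SEMA6D and MYH14 higher and MACROH2A2, TFPI and TMEFF2 lower, with adjusted p from 0.0429 to 0.0479. Values below are therefore given as differences between these libraries, for some genes beside the edgeR adjusted p. None of the genes passed that test on all genes, whether or not the adjusted p is printed. The p-values set the fitted difference against the disagreement between the LN and 2B ratios, with that spread pooled over genes. With 1 library per line, separate cultures of a line were not compared.

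Shared genes were expressed at lower levels than most. Their median over the 4 libraries was 3.16 CPM for the higher and 3.23 CPM for the lower genes, against 21.4 CPM for all genes tested. At a mean of 10 CPM or more, which 10134 genes reached, 34 were shared and higher and 50 were shared and lower. The 95% counting intervals of both ratios excluded 0 for 147 of the 164 higher and 196 of the 214 lower genes. In 118 of the 164, both resistant libraries lay above both parental libraries, a pattern shown by 13.4% of all genes. In 165 of the 214, both lay below both parental libraries, against 13.7% of all genes. Part of this pattern, and of the number of intervals that exclude 0, is fixed by the way shared genes are defined. The intervals of both ratios lay past 2-fold for 70 higher and 75 lower genes.

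The plot of leading genes shows 14 of the 15 highest and the 15 lowest shared ratios at a mean of 10 CPM or more. The shared ratio of a gene is the smaller in size of its LN and 2B ratios.

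**Figure D2:**
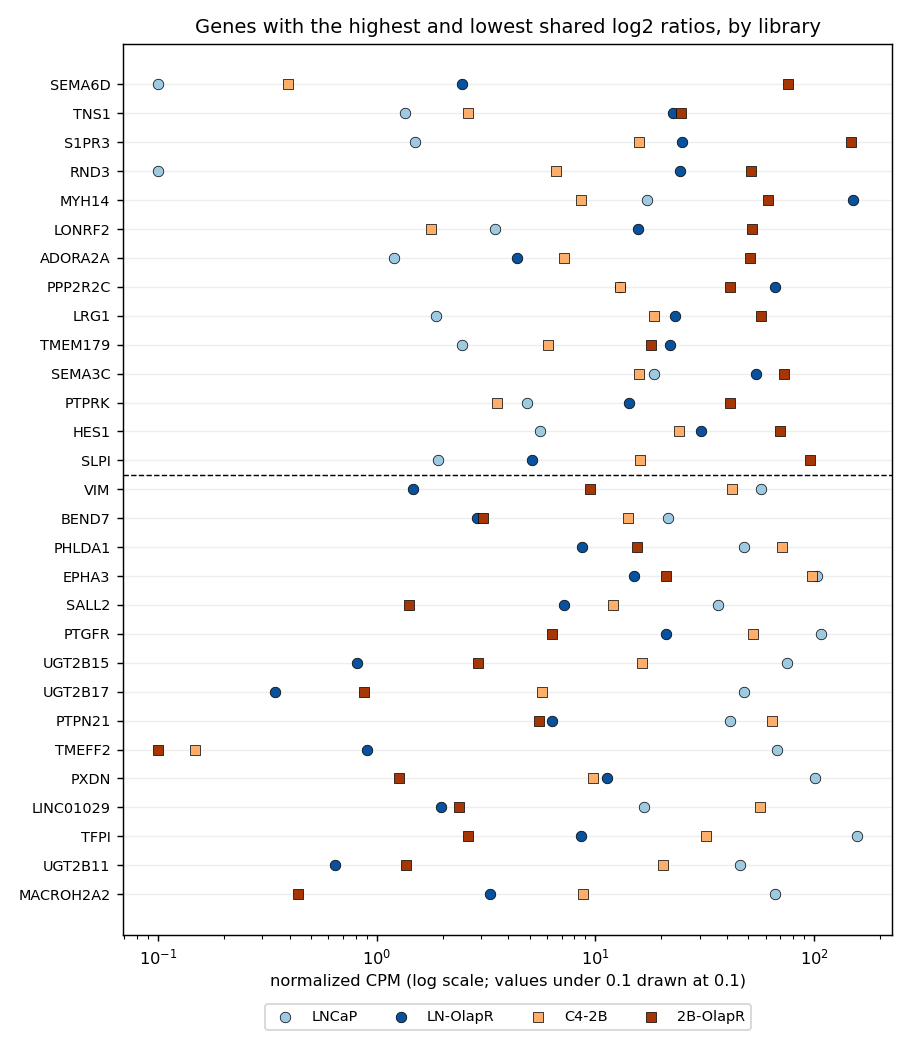
Normalized CPM (log scale, values under 0.1 drawn at 0.1) of 14 of the 15 genes with the highest shared log2 ratios (above the dashed line) and the 15 with the lowest (below it), with 1 point per library. Resistant libraries are dark and parental libraries light, circles are the LN and squares the 2B background, and in both backgrounds the dark symbol lies right of the light one above the line and left of it below the line.

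Guidance cues and their receptors stood at both ends of the list. Semaphorins and ephrins are ligands first known for steering growing axons, and in tumours they also take part in adhesion, movement and vessel growth. SEMA6D, a transmembrane semaphorin, had 57 counts in LN-OlapR and 1574 in 2B-OlapR, against 0 in LNCaP and 8 in C4-2B. It was thus close to undetected in both parental lines and present in both resistant lines. Its level in 2B-OlapR was 76.2 normalized CPM and in LN-OlapR 2.44, so the shared difference went with unequal levels in the 2 resistant lines. The difference in the LN pair was at least 21.8-fold, taking 3 counts as the limit for LNCaP, and the 2B log2 ratio was 7.51. SEMA3C, a secreted semaphorin, stood at 54.5 normalized CPM in LN-OlapR and 72.9 in 2B-OlapR, against 18.6 in LNCaP and 15.8 in C4-2B. Both resistant values lay above both parental values, with a fitted log2 ratio of 1.88 ± 0.24 (SE; edgeR adjusted p = 0.261).

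The Eph receptors and an ephrin lay on the other side. EPHA3, a receptor tyrosine kinase for ephrins of the A class, stood at 15 normalized CPM in LN-OlapR and 21.1 in 2B-OlapR, against 103 in LNCaP and 97.9 in C4-2B. The parental lines had nearly the same level of EPHA3 and both resistant lines were far below it (fitted log2 ratio -2.49 ± 0.21, edgeR adjusted p = 0.129). EPHA7, a related receptor, had log2 ratios of -1.87 and -1.32, and EFNB3, an ephrin of the B class, had an LN ratio of -2.55 and, with 3 counts in 2B-OlapR against 35 in C4-2B, was 11.8-fold lower there (counting interval 3.73 to 60.1). Of 39 tested genes of axon guidance ligands and receptors, these 2 semaphorins and these 3 Eph and ephrin genes were the ones shared at 2-fold. In the whole list 6 genes were higher and 18 lower in both backgrounds. The median fitted log2 ratio was -0.15, against -0.005 for all genes tested. Of all genes tested, 1.05% were shared and higher and 1.37% shared and lower. In direction alone, 28% were higher and 29.4% lower in both backgrounds. These shares are the reference for every list below.

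SEMA6D is a plus-strand gene of chromosome 15, from 47184101 to 47774223 in GRCh38, the assembly named in the submitters' processing notes. MACROH2A2, which had the lowest shared ratio of the leading genes, is on the plus strand of chromosome 10 between 70052796 and 70112280. The promoter sequences around the start site of both genes (RefSeq, GRCh38.p14) are shown because these genes mark the 2 ends of the list, at chr15:47183839-47184138 (plus strand) and chr10:70052596-70052895 (plus strand). Capitals mark a CACGTG motif (E-box), which was found in SEMA6D and in 10.4% of the 10678 tested genes with a promoter entry. None of the motifs searched, which are spelled out further on, was found in the MACROH2A2 sequence.
SEMA6D: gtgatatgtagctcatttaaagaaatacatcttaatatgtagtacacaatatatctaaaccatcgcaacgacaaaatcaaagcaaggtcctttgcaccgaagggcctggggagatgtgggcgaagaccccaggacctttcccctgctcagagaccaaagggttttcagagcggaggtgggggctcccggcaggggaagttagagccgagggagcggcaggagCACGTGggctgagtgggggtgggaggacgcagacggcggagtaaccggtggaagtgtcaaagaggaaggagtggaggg
MACROH2A2: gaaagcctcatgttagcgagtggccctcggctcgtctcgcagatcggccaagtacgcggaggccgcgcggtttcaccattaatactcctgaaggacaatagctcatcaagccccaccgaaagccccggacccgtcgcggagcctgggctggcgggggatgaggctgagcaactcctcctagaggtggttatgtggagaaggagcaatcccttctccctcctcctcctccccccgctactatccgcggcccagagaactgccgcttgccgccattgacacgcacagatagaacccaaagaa

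MACROH2A2 encodes macroH2A2, a histone variant that replaces H2A in nucleosomes of silent chromatin. It stood at 3.30 normalized CPM in LN-OlapR and 0.436 in 2B-OlapR, against 66.3 in LNCaP and 8.74 in C4-2B. The parental lines differed several-fold from each other, yet the ratio to the resistant line was alike in both, with log2 ratios of -4.32 and -4.25. The fitted log2 ratio was -4.32 ± 0.26 (edgeR adjusted p = 0.0947).

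Some genes that act on DNA methylation were also lower. DNMT3A, which sets new methylation marks on cytosine, stood at 22.8 normalized CPM in LN-OlapR and 10.2 in 2B-OlapR, against 63.2 in LNCaP and 26.7 in C4-2B. Both resistant lines lay below both parental lines (fitted log2 ratio -1.43 ± 0.20, edgeR adjusted p = 0.284). TET1, which oxidizes methylated cytosine in the first step of its removal, had log2 ratios of -1.02 and -2.73. Of 15 tested genes of DNA methylation writers and erasers, DNMT3A and TET1 were the ones shared at 2-fold. In the list, 9 were lower and 4 higher in both backgrounds, against 29.4% and 28% of all genes. The median fitted log2 ratio of the list was -0.21, against -0.005 for all genes tested. The highest member was UHRF1, which guides the maintenance of methylation, with log2 ratios of 0.33 and 0.38.

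Genes of the cytoskeleton and of adhesion to the matrix formed another group. MYH14, the heavy chain of non-muscle myosin IIC, stood at 151 normalized CPM in LN-OlapR and 61.8 in 2B-OlapR, against 17.2 in LNCaP and 8.59 in C4-2B. The 2 resistant libraries lay well above both parental ones, and the LN and 2B ratios were close, 3.13 and 2.84 (fitted log2 ratio 3.0 ± 0.18, edgeR adjusted p = 0.0947). TNS1, a tensin that ties integrins to actin at focal adhesions, stood at 22.5 normalized CPM in LN-OlapR and 24.6 in 2B-OlapR, against 1.34 in LNCaP and 2.60 in C4-2B. The 2 resistant values of TNS1 were alike and lay far above both parental ones (fitted log2 ratio 3.64 ± 0.34, edgeR adjusted p = 0.132). RND3, an atypical small GTPase that lowers actomyosin contraction, had 568 counts in LN-OlapR and 1062 in 2B-OlapR, against 2 in LNCaP and 135 in C4-2B. Of the 4 libraries, LNCaP alone held next to none of it, and the LN ratio was 327-fold with a counting interval of 90 to 2703. In the 2B pair its log2 ratio was 2.95, and the spread between the backgrounds gave an edgeR adjusted p of 0.5.

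RHOU, another atypical small GTPase, went the other way, with 63.1 normalized CPM in LN-OlapR and 33.9 in 2B-OlapR, against 151 in LNCaP and 106 in C4-2B. Both resistant values of RHOU lay below both parental values (fitted log2 ratio -1.45 ± 0.18, edgeR adjusted p = 0.258). VIM, the intermediate filament vimentin typical of mesenchymal cells, stood at 1.46 normalized CPM in LN-OlapR and 9.44 in 2B-OlapR, against 57.2 in LNCaP and 42.0 in C4-2B. The 2B-OlapR value was above that of LN-OlapR and well below both parental values, and the log2 ratios of -5.27 and -2.15 gave an adjusted p of 0.473. VIM-AS1, the antisense neighbour of VIM, had 2 counts in LN-OlapR and 17 in 2B-OlapR, against 53 in both parental libraries, and as the strand setting of the counting is not given in the sources used here, reads of the 2 genes may not be told apart. Of 32 tested genes of small GTPases and the cytoskeleton, TNS1 and RND3 were shared and higher and RHOU was shared and lower. The shares over all genes were 1.05% and 1.37%. By direction, 13 were higher and 12 lower in both backgrounds, against 28% and 29.4% of all genes. MYH14 and VIM are not on that list.

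Several genes for matrix proteins and integrins were lower. ITGA5, the alpha chain of the fibronectin receptor, had log2 ratios of -1.20 and -1.53, and LAMB2, a laminin chain of basement membranes, had -1.65 and -1.10. PXDN, a peroxidase that crosslinks collagen IV, stood at 11.3 normalized CPM in LN-OlapR and 1.26 in 2B-OlapR, against 101 in LNCaP and 9.77 in C4-2B. The groups overlapped, since LN-OlapR lay above C4-2B, although both ratios were large (fitted log2 ratio -3.08 ± 0.22, edgeR adjusted p = 0.121). Without the block, the fitted ratio was -0.63 with LNCaP left out and -5.47 with LN-OlapR left out. A fit without the block drops the pairing and also holds the difference between the backgrounds, here and below. COL12A1, a collagen that binds to the surface of fibrils, was higher, with 268 counts in LN-OlapR and 48 in 2B-OlapR, against 2 in LNCaP and 0 in C4-2B. The difference was at least 15.8-fold in the 2B pair and 154-fold (counting interval 42.2 to 1279) in the LN pair. Of 25 tested genes for collagens, laminins and integrins, 10 were lower and 5 higher in both backgrounds, against 29.4% and 28% of all genes. The median fitted log2 ratio of the list was -0.25, which turned to 0.067 at a mean of at least 10 CPM. In the list of epithelial-mesenchymal transition, with 11 tested genes, VIM was shared and lower and TGFB2, a secreted growth factor was shared and higher, on 5 counts in LN-OlapR against 1 in LNCaP, a ratio of 5.75 with a counting interval of 0.643 to 272. Among 14 cadherins and protocadherins, PCDHB13 and PCDHGC3 were shared and higher, while CDH26 stood at 0.729 normalized CPM in LN-OlapR and 0.242 in 2B-OlapR, against 23.2 in LNCaP and 4.42 in C4-2B.

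Receptors and channels of the cell surface were also among the leading genes. S1PR3, a G protein-coupled receptor for the lipid sphingosine 1-phosphate, stood at 25 normalized CPM in LN-OlapR and 147 in 2B-OlapR, against 1.49 in LNCaP and 15.9 in C4-2B. C4-2B started from a higher level than LNCaP, and each resistant line was above its parent, with log2 ratios of 4.05 and 3.21 (fitted log2 ratio 3.59 ± 0.28, edgeR adjusted p = 0.129). ADORA2A, a receptor for adenosine, stood at 4.37 normalized CPM in LN-OlapR and 50.7 in 2B-OlapR, against 1.19 in LNCaP and 7.17 in C4-2B. Here the groups overlapped, as C4-2B lay above LN-OlapR, and without 2B-OlapR and the block the fitted log2 ratio was 0.060, against 2.39 with all libraries. PTGFR, the receptor for prostaglandin F2 alpha, was lower, with 21.0 normalized CPM in LN-OlapR and 6.30 in 2B-OlapR, against 107 in LNCaP and 52.4 in C4-2B. Both resistant values of PTGFR lay below both parental values (fitted log2 ratio -2.69 ± 0.25, edgeR adjusted p = 0.132). Of 23 tested genes on the list of G protein-coupled and nucleotide receptors, S1PR3 was the one shared at 2-fold. The shares over all genes were 1.05% higher and 1.37% lower. By direction, 5 were higher and 9 lower in both backgrounds, against 28% and 29.4% of all genes. ADORA2A and PTGFR are not on that list. Its lowest member, LPAR3, a receptor for lysophosphatidic acid, had log2 ratios of -0.91 and -1.40.

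TRPM8, a cation channel opened by cold and menthol whose transcription in prostate depends on androgen, stood at 34.7 normalized CPM in LN-OlapR and 39.7 in 2B-OlapR, against 10.1 in LNCaP and 15.5 in C4-2B. Each resistant library lay above both parental libraries (fitted log2 ratio 1.57 ± 0.23, edgeR adjusted p = 0.297). Of 20 tested potassium and calcium channel genes, 8 were higher and 3 lower in both backgrounds, against 28% and 29.4% of all genes.

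The largest block of neighbouring genes lay on chromosome 4. UGT2B enzymes attach glucuronic acid to androgens and other lipophilic molecules, which makes them soluble and inactive. Of the shared genes, 6 that follow one another among the tested genes from 68447449 to 69295050 were lower in both resistant lines, namely TMPRSS11E, UGT2B17, UGT2B15, UGT2B10, UGT2B11 and UGT2B28. Elsewhere, shared genes of one direction stood next to each other in 19 pairs.

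UGT2B15 stood at 0.815 normalized CPM in LN-OlapR and 2.91 in 2B-OlapR, against 74.9 in LNCaP and 16.4 in C4-2B. UGT2B17 stood at 0.343 in LN-OlapR and 0.872 in 2B-OlapR, against 48.0 in LNCaP and 5.69 in C4-2B. These are the pair of enzymes best known for inactivating dihydrotestosterone in prostate cells, and both stood under 1 normalized CPM in LN-OlapR. UGT2B11 stood at 0.643 normalized CPM in LN-OlapR and 1.36 in 2B-OlapR, against 45.8 in LNCaP and 20.3 in C4-2B. UGT2B28 stood at 0.600 in LN-OlapR and 1.11 in 2B-OlapR, against 11.7 in LNCaP and 13.2 in C4-2B. Both resistant libraries lay below both parental libraries in each of these 4 genes, and the LN ratio was larger in size than the 2B ratio. UGT2B10 had 294 counts in LNCaP and 0 in LN-OlapR, at least 85.2-fold lower, and 25 in C4-2B and 3 in 2B-OlapR, 8.45-fold lower with a counting interval of 2.58 to 43.7. Fitted log2 ratios of the 5 genes ran from -3.90 ± 0.38 for UGT2B28 (edgeR adjusted p = 0.141) to -5.81 ± 1.49 for UGT2B10 (edgeR adjusted p = 0.513).

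No tested neighbour on either side was 2-fold lower. YTHDC1, the nearest tested gene before the block, had log2 ratios of -0.29 and 0.01, and after it ODAM had 0.63 and -0.35 and UTP3 had -0.19 and 0.24. UGT2B7, within the block, and UGT2B4, just beyond it, were under the expression limit and had 13 and 60 counts in LNCaP, 0 and 1 in LN-OlapR, 3 and 0 in C4-2B, and 0 and 0 in 2B-OlapR. Transcripts of UGT2B10, UGT2B11 and UGT2B15 were 76.4% to 85.8% identical in pairs, so counting could have split or shared reads between them and the values of single members are uncertain. Of 14 tested genes of androgen glucuronidation and steroid enzymes, these 5 were the ones shared at 2-fold, and the highest member was SRD5A1, a 5-alpha-reductase that makes dihydrotestosterone, with log2 ratios of 0.21 and 0.61.

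**Figure D3:**
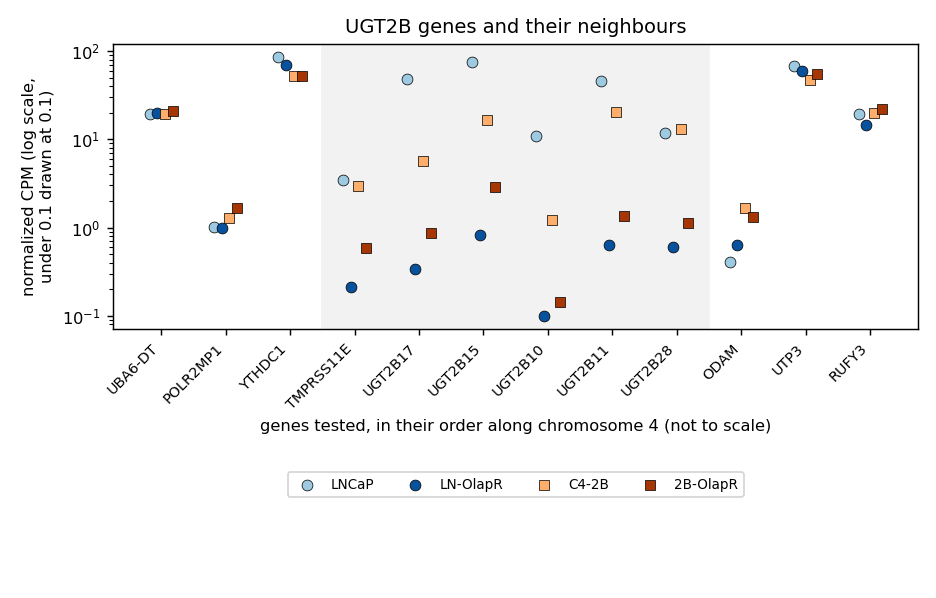
Normalized CPM (log scale, values under 0.1 drawn at 0.1) of the tested genes in their order along chromosome 4, with 1 point per library and the 6 adjacent shared genes on grey. Within the block the 2 resistant libraries (dark symbols) lie below both parental libraries (light symbols), while for none of the plotted neighbours do both resistant libraries lie below both parental ones.

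The promoters of the 3 adjacent UGT2B genes with a RefSeq entry are shown because these genes were lower together and are related in sequence. The UGT2B11 sequence lies at chr4:69214699-69214998 (minus strand), UGT2B10 at chr4:68815744-68816043 (plus strand) and UGT2B15 at chr4:68670603-68670902 (minus strand), all in GRCh38.p14 and around the start site. UGT2B10 and UGT2B11 promoters were 90.1% identical, and UGT2B15 was 69.4% identical to UGT2B10 and 70.6% to UGT2B11. Capitals mark TATAAA in the first and second and AGAACA, a steroid receptor half-site motif, in the third.
UGT2B11: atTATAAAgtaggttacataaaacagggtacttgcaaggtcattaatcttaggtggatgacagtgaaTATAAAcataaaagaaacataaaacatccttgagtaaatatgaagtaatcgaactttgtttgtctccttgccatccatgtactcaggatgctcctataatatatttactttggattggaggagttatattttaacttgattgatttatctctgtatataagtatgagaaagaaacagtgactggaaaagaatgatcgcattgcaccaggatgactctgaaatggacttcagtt
UGT2B10: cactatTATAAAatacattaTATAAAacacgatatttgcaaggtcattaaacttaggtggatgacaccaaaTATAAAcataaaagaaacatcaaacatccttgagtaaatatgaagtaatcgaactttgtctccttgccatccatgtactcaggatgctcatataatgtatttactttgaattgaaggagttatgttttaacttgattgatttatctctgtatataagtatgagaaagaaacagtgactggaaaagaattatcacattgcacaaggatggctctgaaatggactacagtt
UGT2B15: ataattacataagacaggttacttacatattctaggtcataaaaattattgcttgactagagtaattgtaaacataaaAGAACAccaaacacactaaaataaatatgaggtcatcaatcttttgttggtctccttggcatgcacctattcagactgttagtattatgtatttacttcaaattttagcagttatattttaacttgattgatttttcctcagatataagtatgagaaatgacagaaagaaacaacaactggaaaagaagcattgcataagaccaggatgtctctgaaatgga

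Motifs were searched on both strands of such windows for all 10678 tested genes with an entry, among them 118 shared higher and 144 shared lower genes. No motif lies within another. TATAAA was found in 5.36% of all windows, 16.1% of those of shared higher and 11.1% of those of shared lower genes. AGAACA was found in 8.65%, 11.9% and 15.3%, and TGANTCA, the AP-1 motif, in 4.08%, 6.78% and 4.17%. The GC box GGGCGG showed the opposite order, with 70.3% of all windows, 55.1% of the higher and 55.6% of the lower genes. CACGTG was found in 10.4%, 12.7% and 9.03%, and TGACGTCA, the cyclic AMP response element, in 3.28%, 0% and 2.78%. The median ratio of observed to expected CpG was 0.846 over all windows, 0.733 for the higher and 0.704 for the lower genes. Shared genes had lower expression than the rest, as given above, and the part of expression level in these shares was not tested.

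Several leading genes encode secreted proteins, which were not a list of their own. IGFBP3, which binds insulin-like growth factors outside the cell, stood at 13.2 normalized CPM in LN-OlapR and 92.6 in 2B-OlapR, against 5.07 in LNCaP and 6.38 in C4-2B. Both resistant libraries lay above both parental ones, although the ratios were unequal, 1.38 and 3.85 on the log2 scale (fitted 2.63 ± 0.66, edgeR adjusted p = 0.505). TFPI, an inhibitor of the start of blood clotting, stood at 8.58 normalized CPM in LN-OlapR and 2.62 in 2B-OlapR, against 158 in LNCaP and 32.0 in C4-2B. Each resistant line had a small part of the TFPI transcripts of its parent, with log2 ratios of -4.20 and -3.60 (fitted -3.93 ± 0.24, edgeR adjusted p = 0.0947). LRG1, a secreted glycoprotein, stood at 23.1 normalized CPM in LN-OlapR and 57.4 in 2B-OlapR, against 1.86 in LNCaP and 18.6 in C4-2B. SLPI, an inhibitor of serine proteases, had log2 ratios of 1.43 and 2.59, with overlapping groups, since C4-2B at 15.9 normalized CPM lay above LN-OlapR at 5.15, and its fitted log2 ratio turned to -0.80 without 2B-OlapR and without the block.

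Of the leading genes, 3 encode phosphatases or a subunit of one, and these were not a list either. PPP2R2C, a regulatory subunit of protein phosphatase 2A, stood at 13.0 normalized CPM in both LNCaP and C4-2B, at 66.0 in LN-OlapR and at 41.3 in 2B-OlapR. Its parental levels were alike and both resistant levels stood apart from them (fitted log2 ratio 2.01 ± 0.26, edgeR adjusted p = 0.261). PTPRK, a receptor tyrosine phosphatase found at cell contacts, had log2 ratios of 1.55 and 3.53. PTPN21, a cytoplasmic tyrosine phosphatase, stood at 6.30 normalized CPM in LN-OlapR and 5.52 in 2B-OlapR, against 41.3 in LNCaP and 64.4 in C4-2B. For PTPN21 the 2 resistant lines were alike (fitted log2 ratio -3.12 ± 0.30, edgeR adjusted p = 0.137).

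Among transcriptional regulators, HES1, a repressor induced by Notch, stood at 30.3 normalized CPM in LN-OlapR and 70.0 in 2B-OlapR, against 5.59 in LNCaP and 24.2 in C4-2B. TLE1, a corepressor that works with HES proteins and with Wnt target factors, stood at 57.8 normalized CPM in LN-OlapR and 98.5 in 2B-OlapR, against 18.1 in LNCaP and 45.3 in C4-2B. Both were above both parental values in each resistant line, with an edgeR adjusted p of 0.299 each. HES1 was the single gene shared at 2-fold among 30 of the Wnt and Notch pathways. The shares over all genes were 1.05% higher and 1.37% lower. Of the 30, 9 were higher and 9 lower in both backgrounds, against 28% and 29.4% of all genes. SALL2, a zinc finger factor, was lower, with log2 ratios of -2.34 and -3.08. PHLDA1, which growth factors induce, had log2 ratios of -2.46 and -2.21, and FOSB, an early response factor, had 1.59 and 1.11. They were the shared members among 16 tested genes of MAPK feedback and the immediate early response. Other leading genes were LONRF2, with log2 ratios of 2.16 and 4.85, TMEM179 (3.15 and 1.55), BEND7 (-2.89 and -2.20), the noncoding LINC01029 (-3.07 and -4.56) and TMEFF2. TMEFF2 had 21 counts in LN-OlapR and 0 in 2B-OlapR, against 1811 in LNCaP and 3 in C4-2B, so that its low adjusted p rests on the LN pair.

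Androgen-induced genes had no common direction in the 2 backgrounds. TMPRSS2, an androgen-induced serine protease, stood at 485 normalized CPM in LN-OlapR and 264 in 2B-OlapR, against 200 in LNCaP and 131 in C4-2B (fitted log2 ratio 1.15 ± 0.17, edgeR adjusted p = 0.297). Of 28 tested androgen-induced genes, TMPRSS2 and TRPM8 were shared and higher, and TMEFF2 counted as shared and lower on 3 counts against 0 in the 2B pair. Of the 28, 6 were higher and 6 lower in both backgrounds, and 16 had opposite signs. Of 15 genes on a list of pioneer factors and coregulators of androgen response, TLE1 was the one shared at 2-fold, and NCOA3, a coactivator, was lowest with a log2 ratio of -0.53 in both.

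No gene on the lists of pathways through which PARP inhibitors act was shared at 2-fold. Over all genes tested, 1.05% were shared and higher and 1.37% shared and lower, so lists of this size would hold few or none at these shares. In direction alone, 28% of all genes were higher and 29.4% lower in both backgrounds. None of 16 tested genes of the PARP family and poly(ADP-ribose) turnover was shared at 2-fold, and 3 were higher and 6 lower in both backgrounds. PARP14, a mono-ADP-ribosyltransferase, was lowest with log2 ratios of -2.30 and -0.83, and PARP10 highest with 0.48 and 0.73. None of 34 genes of homologous recombination and the Fanconi anemia pathway was shared at 2-fold, with 7 higher and 13 lower in both backgrounds and members between PALB2 (log2 ratios -0.27 and -0.44) and XRCC2 (0.66 and 0.39). Among 23 genes of end joining and fork protection, 8 were higher and 5 lower in both backgrounds. SHLD1, a part of the shieldin complex that limits resection of DNA ends, came closest to 2-fold in both, with 0.91 and 1.39. LIG3 was lowest with -0.29 and -0.35. Among 8 drug efflux transporters, 3 were higher and 4 lower in both backgrounds. ABCG1, which exports cholesterol, was highest with 0.84 and 1.46, and ABCC6 was lowest with -0.89 and -0.67. All counts in this paragraph are 0 for the edgeR test, as over all genes.

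The nuclear OxPhos genes showed small differences, more often higher than lower in both backgrounds. Of 37 nuclear genes for subunits of complex I, 25 were higher and 2 lower in both backgrounds, with a median fitted log2 ratio of 0.18. Of 38 nuclear genes for complexes II to V, 24 were higher and 0 lower in both, with a median of 0.13. With scaling by total counts the medians were 0.12 and 0.068, and that of all genes -0.066. In the main scaling, the shares over all genes were 28% higher and 29.4% lower and the median was -0.005. No OxPhos gene reached 2-fold in both backgrounds, and the highest were NDUFA7, a complex I subunit, with log2 ratios of 0.41 and 0.46, and CYC1, cytochrome c1 of complex III, with 0.55 and 0.36. Of the 13 mRNAs encoded in mitochondrial DNA, 2 were higher and 6 lower in both backgrounds. Of 18 tested genes of mitophagy, 5 were higher and 4 lower in both, and SQSTM1, an autophagy receptor, was highest, at 452 normalized CPM in LN-OlapR and 599 in 2B-OlapR, against 253 in LNCaP and 328 in C4-2B. PINK1, the kinase that marks damaged mitochondria, had a fitted log2 ratio of 1.46 ± 0.53 (edgeR adjusted p = 0.598), as its LN ratio of 0.46 and 2B ratio of 2.47 were far apart, and it was 0.51 without 2B-OlapR and the block. EGFR, a receptor tyrosine kinase, had 0.46 and 1.28 (edgeR adjusted p = 0.571), with C4-2B above LN-OlapR, and its fitted log2 ratio turned to -0.41 without 2B-OlapR and without the block.

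The lists of DNA replication, mitosis, p53 targets, glycolysis, lipid synthesis, the unfolded protein response and NRF2 targets held no gene shared at 2-fold. Of 33 genes of DNA replication, 9 were higher and 8 lower in both backgrounds, and of 30 genes of mitosis, 5 and 6. Of 25 p53 target genes, 19 had opposite signs in the 2 backgrounds. So had 19 of 24 genes of glycolysis and 22 of 29 of cholesterol and fatty acid synthesis. Of all genes tested, 57.5% had the same sign in both. Median LN and 2B ratios were 0.38 and -0.41 for p53 targets, 0.21 and -0.13 for glycolysis, and -0.14 and 0.50 for lipid synthesis. Of 26 genes of the unfolded protein response and ATF4 targets, 12 were lower and 4 higher in both, with a median of -0.22. Of 19 NRF2 targets and antioxidant genes, 10 were higher and 2 lower in both. Of 21 interferon-induced genes, OAS1 and OAS3, adjacent genes on chromosome 12 whose products sense double-stranded RNA, were shared and higher. In that list 7 were higher and 4 lower in both backgrounds, 10 had opposite signs, and the median fitted log2 ratio was -0.04. OAS1 had 20 counts in LN-OlapR and 54 in 2B-OlapR, against 7 in LNCaP and 9 in C4-2B. OAS3 stood at 34.7 normalized CPM in LN-OlapR and 64.9 in 2B-OlapR, against 13.9 in LNCaP and 31.7 in C4-2B.

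Cancer-testis antigens, which are normally silent outside the germ line, had a strongly negative median in the LN pair and one near 0 in the 2B pair. The median log2 ratios were -4.11 and -0.11, and the median fitted log2 ratio was -1.63, against -0.005 for all genes tested. Of 15 tested, 6 were lower and 4 higher in both backgrounds, against 29.4% and 28% of all genes, and 5 had opposite signs. The highest member, MAGEA2, had log2 ratios of 0.66 and 0.36. The members shared at 2-fold were lower. MAGEA4 had 99 counts in LNCaP and 14 in C4-2B and 0 in both resistant lines, at least 28.7-fold and 4.73-fold lower. MAGEC2 had 2 counts in LN-OlapR and 0 in 2B-OlapR, against 139 in LNCaP and 1 in C4-2B, and no fold is given for the 2B pair. CTAG2 had 0 counts in LN-OlapR and 105 in 2B-OlapR, against 17 in LNCaP and 303 in C4-2B, so its groups overlapped and its fitted log2 ratio was 2.0 without C4-2B and without the block. These 3 counted as shared among 15 tested genes of the list, MAGEC2 on 1 count against 0 in the 2B pair, and no member was shared and higher. Single shared members of other lists were CDKN1C, an imprinted inhibitor of cyclin-dependent kinases, with log2 ratios of -1.53 and -1.95, SYT4, a synaptotagmin of the neuroendocrine list, with -2.44 and -1.87, and the metallothionein MT1X with -1.02 and -1.35. In all, 22 of 41 lists of functions had no member shared at 2-fold, and their median fitted log2 ratios ran from -0.24 to 0.20.

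**Figure D4:**
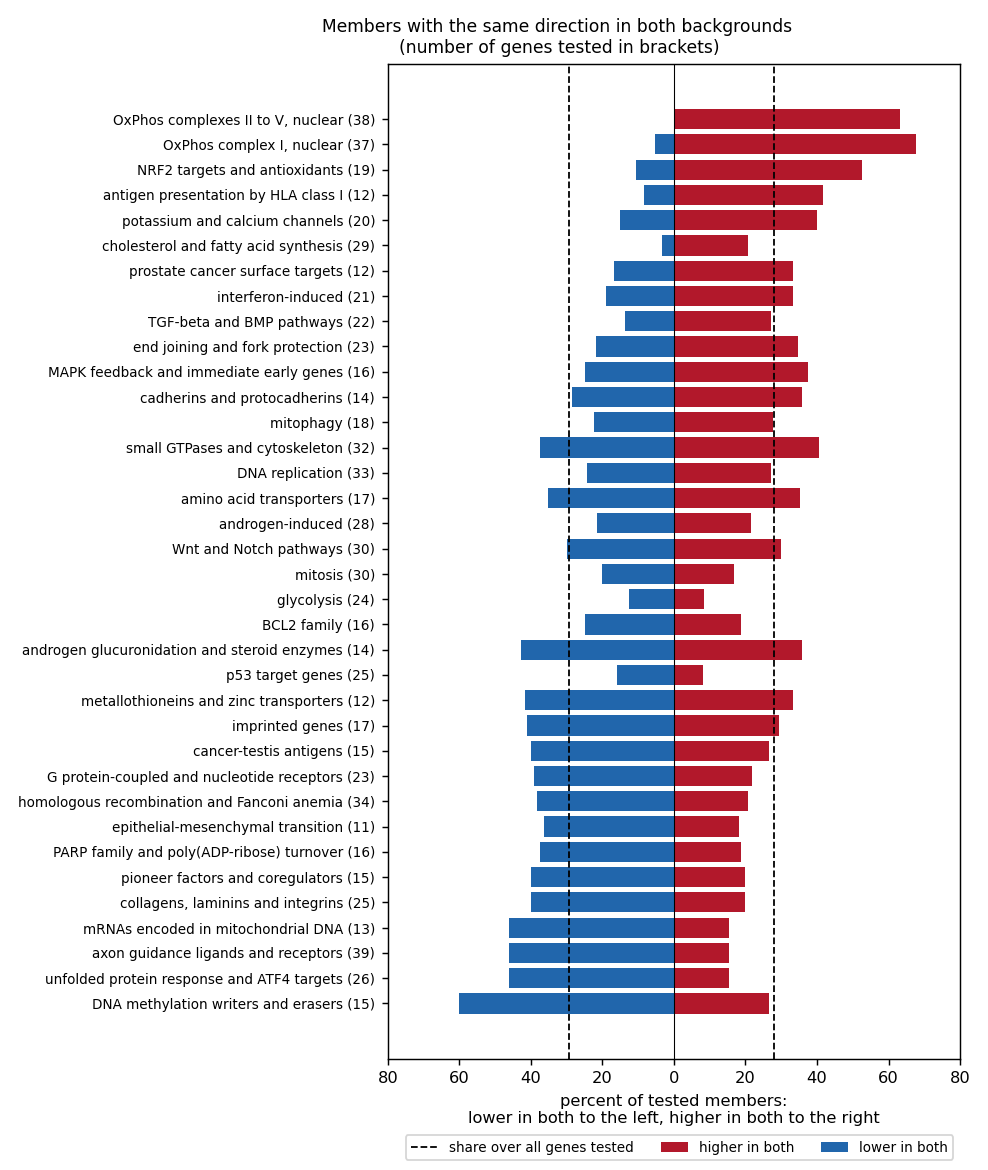
Percent of the tested members of each list with at least 10 tested genes that were higher in both backgrounds (red, to the right) or lower in both (blue, to the left), with dashed lines at 28% and 29.4%, the shares over all genes tested. The lists of OxPhos genes have the longest red bars, and DNA methylation writers and erasers the longest blue bar, with 9 of 15 genes lower in both.

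Shared genes were spread over the chromosomes with some unevenness. Chromosome 2 held 11% of the higher genes against 6.06% of the genes tested, chromosome 12 held 8.88% of the lower genes against 4.83%, and chromosome 18 held 4.67% of the lower genes against 1.46%. Chromosome 5 held 6.71% of the higher and 0.935% of the lower genes against 4.53%. Protein-coding genes made up 84.1% of the higher, 75.2% of the lower and 78.6% of the tested genes, and long noncoding RNAs made up 8.54%, 10.3% and 9.72%.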

How the data were processed

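Stranded poly(A) mRNA libraries had been made from 100 ng of RNA of each line, which was plated for 48 hours by the labels and 72 hours by the study's methods. The submitters' processing notes name STAR, Partek, GRCh38 and hg38 without versions, and the strand setting of the counting is not given in the sources used here. The authors deposited 1 table of estimated counts per gene, not scaled between libraries; 46.2% of its values are not whole and were rounded. Each pair comes from 1 line of origin, and background was a block in edgeR 4.0.16 (R 4.3.3; TMM factors, quasi-likelihood F test, two-sided, Benjamini-Hochberg adjustment over 15644 genes with a mean of at least 1 CPM). Ratios of a pair used 0.5 added counts, and 95% intervals cover counting error only, as PCR copies were not marked. A count of 3 or fewer gave a limit, a ratio with an exact interval, or no fold. DESeq2 1.42.0, other scalings, pseudocounts, filters and limits, and leaving out each library were alternatives. Scripts were tested on simulated data. Positions and types of genes are from GENCODE release 29 (GRCh38), with 15121 of the tested genes matched.

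Genes named are the 15 highest and 15 lowest shared ratios with a mean of at least 10 CPM, the 3 largest opposite pairs per direction, shared members and the highest and lowest member of each of 47 gene lists, and PINK1, IGFBP3 and EGFR, which the study discusses. VIM-AS1, TMPRSS11E, YTHDC1, ODAM, UTP3, UGT2B7, UGT2B4 and the genes of the closing observations other than those were chosen after their values were seen. The members and lists were chosen with earlier results of these data known. Some genes under the rule are described by their list's counts only, and some results are not reported here.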

Additional observations from a re-analysis of the deposited data

Results flagged for a closer look

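The 6 genes below, with a mean of at least 10 CPM, had the largest differences in opposite directions in the 2 backgrounds. The difference between the backgrounds was not tested, since its term would leave no residual degrees of freedom among 4 libraries. Among genes higher in LN-OlapR and lower in 2B-OlapR, PRKAA2, a catalytic subunit of the AMP-activated kinase, had a log2 ratio of 2.17 in the LN pair and -2.22 in the 2B pair. MYBPC1, a myosin-binding protein of muscle, had 3.21 and -2.56. CACNA1H, a T-type calcium channel, had 3.21 and -2.50, the latter from 3 counts in 2B-OlapR against 19 in C4-2B, 6.42-fold lower with a counting interval of 1.89 to 33.9. Among genes lower in LN-OlapR and higher in 2B-OlapR, ELOVL6, a fatty acid elongase, had -2.22 and 1.81, COLCA1 had -1.94 and 3.12, and XAGE1A, a cancer-testis antigen, had -8.36 and 2.03, the former from 1 count in LN-OlapR against 566 in LNCaP, 492-fold lower with a counting interval of 88 to 19479. Their fitted log2 ratios over both backgrounds lay between -1.63 for XAGE1A and 1.53 for CACNA1H, with standard errors from 1.12 to 3.11.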

How the results depend on the processing

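The number of edgeR calls was 0 in each direction with all edgeR scalings, with robust estimation, with no expression filter, without the block and without each library in turn (0 to 0 calls). DESeq2 called 78 higher and 87 lower genes, and edgeR on genes with a mean of at least 10 CPM called 2 higher and 3 lower. The pairing follows the line of origin and is part of the design; without the replicate block, 364 genes had an unadjusted p under 0.05, against 1277 with it. With a library left out, the block leaves no residual degrees of freedom, so these fits had no block and the lone library of a group was assumed to vary like the other group. Such a fit drops the pairing, so its ratio also holds the difference between the backgrounds. Shared genes numbered 649 higher and 639 lower with no expression filter, 34 and 50 with a mean of at least 10 CPM, 442 and 559 at 1.5-fold, 43 and 57 at 4-fold, and 70 and 75 where the counting intervals of both ratios lay past 2-fold. They numbered 150 and 240 with scaling by total counts, which moved the median of all genes to -0.066, and between 154 and 168 higher and 194 and 215 lower with the other scalings and a pseudocount of 2 counts. With at least 10 counts in the higher library of each background, an alternative chosen after seeing the data, they numbered 148 and 196. In these unpaired fits, log2 ratios of SLPI and EGFR turned to -0.80 and -0.41 without 2B-OlapR, and that of CTAG2 to 2.00 without C4-2B. The paired LN and 2B ratios kept 1 sign in each gene, with 1.43 and 2.59 for SLPI and 0.46 and 1.28 for EGFR, while CTAG2 was lower in both pairs. Of the 59 genes examined, 54 to 59 had a value with a library left out, and no others changed sign. Among those of unchanged sign, 14 to 16 per left-out library moved by over 1.5 times. DESeq2 called 43 of the 59, against 165 of 14430 genes with an adjusted p. Most of the 59 were chosen for large ratios in these same libraries, so a high share of calls follows from the choice. The medians of glycolysis, DNA replication, mitosis, mitophagy, metallothioneins, luminal markers and surface targets lay near 0 and changed sign under at least 1 alternative. So did, at a mean of at least 10 CPM, those of collagens, laminins and integrins, of G protein-coupled receptors (to 0.10) and of steroid enzymes (to 0.038). Counts of 3 or fewer, in SEMA6D, RND3, COL12A1, UGT2B10, MAGEA4 and TMEFF2, limit how large their ratios can be stated.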

Other observations

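Some genes under the limit for naming were present in one group and at 3 counts or fewer in both libraries of the other, or stood out by function. They were chosen after their values were seen, and none passed the edgeR test. DOK6, an adaptor of receptor tyrosine kinases, had 0 counts in LNCaP and C4-2B, 48 in LN-OlapR and 72 in 2B-OlapR, at least 18.4-fold and 23.7-fold higher. EYA2, a transcriptional coactivator and phosphatase, had 79 counts in LN-OlapR and 86 in 2B-OlapR, against 0 in LNCaP and 1 in C4-2B. DAPK1, a kinase that promotes cell death, had 225 counts in LNCaP, 19 in C4-2B and 0 in both resistant lines, at least 65.2-fold and 6.42-fold lower. TMTC1 had 1 counts in LN-OlapR and 1 in 2B-OlapR, against 11 in LNCaP and 95 in C4-2B. CTNND2 and the unnamed gene ENSG00000260342 also met this description on the parental side, although CTNND2 had 1 count in LN-OlapR and 87 in 2B-OlapR.

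AHR, the aryl hydrocarbon receptor, had log2 ratios of 3.24 and 3.01, with 2.62 normalized CPM in LN-OlapR and 8.47 in 2B-OlapR, against 0.261 in LNCaP and 1.03 in C4-2B. CYP1A1, a cytochrome P450 that this receptor is known to induce, had 3.40 and 1.06. NRXN3, a neurexin of synapses, had 2.85 and 2.99. SOX4, a transcription factor of progenitor cells, stood at 72 normalized CPM in LN-OlapR and 52.5 in 2B-OlapR, against 267 in LNCaP and 252 in C4-2B (fitted log2 ratio -2.08 ± 0.19, edgeR adjusted p = 0.132). TMSB10, a small protein that binds actin monomers, had log2 ratios of -1.32 and -1.49, and FSCN1, which bundles actin, had -2.33 and -1.41.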
